A study of Rattus norvegicus with 48 samples.

Results

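The miR-218 family of the rat was examined in small RNA libraries from the brain. Its 4 names in the deposited table, the precursors mir-218a-1, mir-218a-2 and mir-218b and the mature form miR-218a-5p, were taken by name from the 1063 names of that table, and lines that shared a name were added up. RNA had been isolated from the amygdala and the ventral striatum of Long Evans rats at postnatal day 42. Dams had received injections of ethanol or of saline (control) on gestational day 12, and after weaning on day 21 the offspring were housed with littermates (non-enriched) or with unfamiliar rats of the same age and sex from untreated dams (socially enriched). All rats had taken part in a social interaction test before the tissue was collected. Each library was made from a pool of RNA from 3 rats of one sex and treatment, with 3 pools per sex, treatment group and region, so that 48 libraries were available, 24 per region and 6 per treatment group in a region. Neither region was sorted into cell types, so fewer cells of a type and less RNA per cell cannot be told apart in these values.

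MicroRNAs are cut from hairpin precursors, and the mature strand guides a silencing complex to messenger RNAs that pair with its seed, the bases near its 5′ end. The miR-218 hairpins lie within introns of the Slit genes, whose secreted products steer axons and migrating cells through Robo receptors, and the mature form is best known from motor neurons, where it is abundant. It is also found in forebrain neurons.

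The mature sequences are shown because they decide which reads could be told apart. They were taken from RefSeq (build GRCr8, which is not the build that the reads were aligned to). All 3 loci of the family were found there, and the seed (bases 2 to 8) is in capitals.

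miR-218a-5p: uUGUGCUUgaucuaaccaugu
miR-218a-1-3p: aAACAUGGuuccgucaagcac
miR-218a-2-3p: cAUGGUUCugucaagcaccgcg
miR-218b: cAUGGUUAgaucaagcacaa

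The 21 bases of miR-218a-5p are the same at both of its loci, chr10:20572547-20572567 on the plus strand and chr14:66922413-66922433 on the minus strand. No other of the 724 mature entries in the RefSeq table had its seed. The 3p arms share a run of only 9 bases, so a 3p read names its locus and a 5p read of the mature length does not. miR-218b, with 20 bases at chr14:66922414-66922433 on the plus strand, is the reverse complement of bases 1 to 20 of miR-218a-5p. The hairpins below, with the mature arms in capitals, show where these sequences lie.

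Mir218-1: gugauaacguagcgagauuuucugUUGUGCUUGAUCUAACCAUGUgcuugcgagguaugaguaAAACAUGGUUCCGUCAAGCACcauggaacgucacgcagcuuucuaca
Mir218-2: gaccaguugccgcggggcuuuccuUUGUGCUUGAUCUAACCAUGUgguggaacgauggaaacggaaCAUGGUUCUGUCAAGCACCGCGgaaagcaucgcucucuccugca
Mir3565: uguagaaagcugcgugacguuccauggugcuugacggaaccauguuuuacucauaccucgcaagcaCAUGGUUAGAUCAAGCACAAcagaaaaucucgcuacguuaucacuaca

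Mir218-1 (chr14:66922348-66922457, minus strand, within Slit2) is the locus of mir-218a-1, and Mir218-2 (chr10:20572523-20572632, plus strand, within Slit3) is the locus of mir-218a-2. The longest run of bases common to these hairpins was 22 and held the whole of miR-218a-5p. Mir3565, which RefSeq also lists as mir-218b (chr14:66922348-66922461, plus strand), covers all 110 bases of Mir218-1 on the opposite strand. The names mir-218a-1 and mir-218b therefore stand for the same place in the genome.

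The authors deposited values in RPM, reads per 1000000 reads, in which the mature names and the precursor names of a library each add up to 1000000. From the step between low values, the libraries held between 363141 and 1370406 mature reads (median 977844). miR-218a-5p had between 714 and 3160 reads in a library (median 1608), for which counting alone gives an error of 3.74% to 1.78%. The 6 neuronal markers had summed levels of 28700 to 54500 RPM in the amygdala and 29800 to 56500 RPM in the ventral striatum, on average mostly miR-9a-5p. Markers of the choroid plexus, the epithelium that makes cerebrospinal fluid, had summed levels of 3670 to 145000 RPM in the amygdala and 4570 to 12400 RPM in the ventral striatum.

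miR-218a-5p was the main product of the family. In the amygdala it had a median of 2088 RPM, with a lowest value of 1300 and a highest of 3066 RPM over 24 libraries, and its median place among the 612 mature names was 57. In the ventral striatum the median was 1470 RPM (896 to 2203 RPM) and the median place was 69.5. These levels amounted to 0.209% ± 0.0429 of the mature reads in amygdala libraries and 0.150% ± 0.0406 in ventral striatum libraries (SD, n = 24 each). The 3p arms were at the limit of detection. miR-218a-1-3p had at least 1 read in 29 of 48 libraries and never more than 4, and miR-218a-2-3p had at least 1 read in 25 libraries with the same maximum. Over all libraries, 57 and 36 reads were counted for these arms, and the median library had 1.07 reads of both 3p arms per 1000 reads of the 5p arm. A count of 0 allows up to 3 reads, which was worth 2.19 to 8.26 RPM depending on the library. Neither arm passed the adjusted threshold between regions or in a treatment contrast (limma adjusted p of 0.327 and above). Before adjustment, miR-218a-2-3p was under 0.05 in 1 contrast, enriched against non-enriched control amygdala, where 9 reads in 4 of 6 libraries stood against 1 read in 1 of 6 (limma p = 0.0497, adjusted p = 1, exact permutation p = 0.0606). A group total of 1 read lies under the floor, so no fold is given. The mature form of mir-218b, which would come from the strand opposite to mir-218a-1, was listed at 5.57e-27 RPM or less in every library.

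The values of mir-218b gave no measurement apart from mir-218a-1. The ratio of mir-218b to mir-218a-1 was between 0.1737 and 0.1738 in all 48 libraries. Neither value alone was a whole number of reads in more than 4 libraries, whereas their sum was whole in 48 of 48 (within 0.05 read), and mir-218b took 14.8% of it. How reads at a shared place were divided is not given in the sources used here. Everything said below of mir-218a-1 holds for mir-218b at this fixed ratio, and the 2 names count as 1 measurement. Precursor values also contain the mature reads, since the libraries were made from RNA of the mature length: the median library had 75.4 mature miR-218a-5p reads per 100 reads of the 3 precursor names in amygdala libraries and 75.0 in those of the ventral striatum. The 4 names are thus not independent of each other.

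The first comparison asked whether miR-218 differed between the regions. Per the methods, both regions came from the same rats. The labels do not pair their pools, so the main tests took the 48 libraries as independent. Levels in the amygdala were higher than in the ventral striatum for all 4 names. miR-218a-5p averaged 2087 ± 429 RPM in the amygdala and 1500.0 ± 406 RPM in the ventral striatum (SD, n = 24 each), with 22 of 24 amygdala libraries above the ventral striatum median. Its log2 difference was 0.50 (standard error 0.10, limma with Benjamini-Hochberg adjustment over 942 names, adjusted p = 0.000308). The precursor mir-218a-1 averaged 1283 ± 277 and 880.1 ± 234 RPM, a log2 difference of 0.56 (standard error 0.10, limma adjusted p = 0.000104), and mir-218b, at its fixed ratio, had 223 ± 48.1 and 153 ± 40.7 RPM. The precursor mir-218a-2 averaged 868 ± 216 and 675 ± 214 RPM, a log2 difference of 0.39 (standard error 0.13, limma adjusted p = 0.0195). The last of these calls did not hold when the library sets of each region, described below, were taken as a random block (limma adjusted p = 0.0665). Of all names tested, 8.49% were higher in the amygdala at this threshold (80 higher, 198 lower; 108 and 118 after median-ratio rescaling), and the median difference of all names was -0.08 on the log2 scale. Permutation of the mean RPM between regions (100000 resamples) gave p = 4e-05 for miR-218a-5p, 2e-05 for mir-218a-1 and 0.00378 for mir-218a-2, and the ranges of the regions overlapped for each. All 3 oligodendrocyte markers were lower in the amygdala, 2 of 7 choroid plexus markers were higher, and of 6 neuronal markers 1 was higher and 2 were lower (limma adjusted p under 0.05). Of the markers of hindbrain and spinal cord, where motor neurons are found, miR-10a-5p was lower in the amygdala by a log2 difference of -0.96 (limma adjusted p = 0.012). The summed levels of oligodendrocyte markers were 4670 to 15500 RPM in the amygdala and 6220 to 15900 RPM in the ventral striatum, and the part of the cell makeup in the values of miR-218 was not tested.

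**Figure D1:**
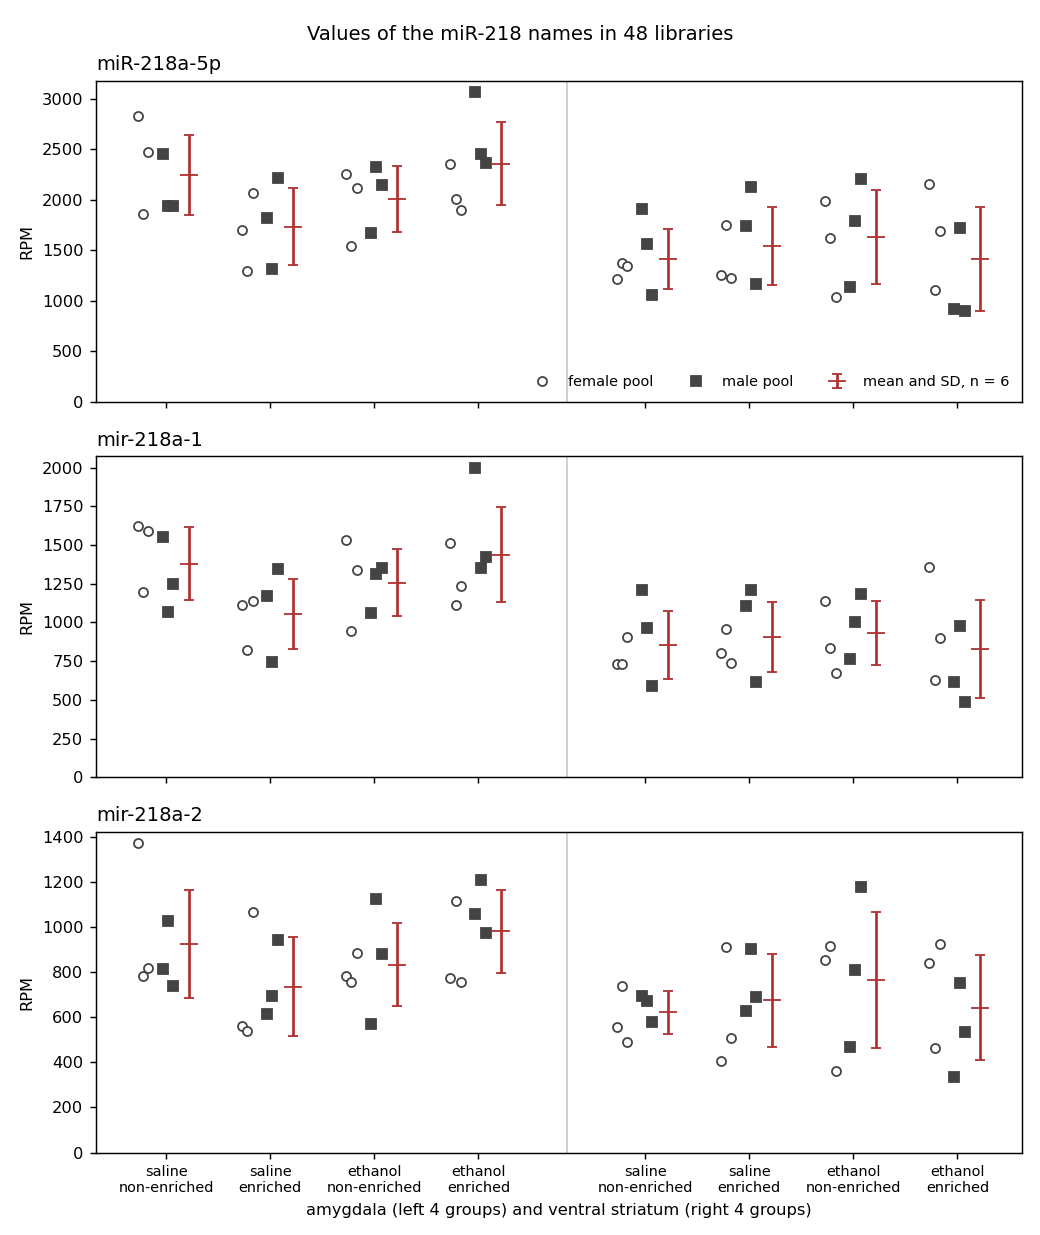
Values in RPM (vertical axes, from 0) of miR-218a-5p, mir-218a-1 and mir-218a-2 in each of 48 libraries by region and treatment group, with open circles for pools of females, filled squares for pools of males and red bars for the mean and SD of 6 libraries. The amygdala groups of miR-218a-5p average from 1735 to 2358 RPM and the ventral striatum groups from 1412 to 1630 RPM.

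Within treatment groups the difference between regions passed the test in some groups and not in others. Whether its size differed with ethanol or with housing was tested with limma, and no name passed after adjustment. For miR-218a-5p the smallest p before adjustment in these tests was 0.0384, for ethanol-exposed enriched against control enriched rats. The group values below therefore do not establish that the groups differ in size of the regional difference. In ethanol-exposed enriched rats miR-218a-5p had 1899 to 3066 RPM (median 2359) in the amygdala and 896 to 2159 RPM (median 1399) in the ventral striatum. This log2 difference of 0.80 (standard error 0.20) passed the test (limma adjusted p = 0.0125). In control non-enriched rats miR-218a-5p had 1857 to 2826 RPM (median 2195) in the amygdala and 1057 to 1910 RPM (median 1362) in the ventral striatum, a log2 difference of 0.68 (standard error 0.20, limma adjusted p = 0.0451). mir-218a-1 also passed in both groups, with log2 differences of 0.86 and 0.71 (limma adjusted p = 0.00945 and 0.0377). mir-218a-2 did not pass in either (log2 differences of 0.68 and 0.55, limma adjusted p = 0.0988 and 0.239). The calls in control non-enriched rats were near the threshold. That of miR-218a-5p was lost with ordinary least squares (adjusted p = 0.0522), without the filter on low names (limma adjusted p = 0.0508) and on leaving out any of 14 libraries, 10 of them from the group itself, and that of mir-218a-1 was lost on leaving out any of 8. Of all names, 2.23% were higher in the amygdala of ethanol-exposed enriched rats and 2.44% in that of control non-enriched rats at this threshold. After median-ratio rescaling, the number of names higher in the amygdala went from 21 to 37 of 942 in ethanol-exposed enriched and from 13 to 30 in ethanol-exposed non-enriched rats.

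In the remaining groups none of the 4 names passed. Control enriched rats had log2 differences of 0.18 for miR-218a-5p, 0.23 for mir-218a-1 and 0.13 for mir-218a-2, with 0.0% of names higher in the amygdala at the threshold. Ethanol-exposed non-enriched rats had 0.34, 0.44 and 0.20, with 1.38% of names; here the limma p before adjustment was 0.0416 for mir-218a-1. For mir-218a-2 in control non-enriched rats every amygdala library (740 to 1370 RPM, median 817) was above every ventral striatum library (489 to 739 RPM, median 625, exact permutation p = 0.00216, n = 6 each). Values of 1.91% of all names were separated in this way, and the limma test of mir-218a-2 in that group is the one given above.

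The ratio of mir-218a-2, within Slit3, to mir-218a-1, within Slit2, was then compared within libraries, where the scaling of a library cancels. The log2 ratio of mir-218a-2 to mir-218a-1, each with 1 RPM added, was -0.57 ± 0.342 in amygdala and -0.40 ± 0.376 in ventral striatum (SD, n = 24 each). mir-218a-2 was the lower of the pair in both regions on average, but single libraries ran from -0.99 to 0.16. This ratio leaves out the reads of the Slit2 locus that were listed as mir-218b. With these added, mir-218a-2 held 30.0% to 48.7% of the reads of the 3 precursor names, the smaller part in all 48 libraries. Most of these reads are mature reads, which do not name their locus. The shares therefore describe reads as listed, and which locus gave more RNA was not measured. The difference of -0.17 between regions did not pass a permutation test (100000 resamples, p = 0.111), nor when libraries with consecutive numbers in the labels were paired (p = 0.0577), where the ratio was higher in the amygdala in 8 of 24 pairs. These 8 pairs all belonged to 1 of the 3 library sets described next, and neither test takes the sets into account. Between treatment groups the mean ratio differed by at most 0.077 in the 8 contrasts (exact permutation tests of 6 against 6 libraries, smallest p = 0.747, adjusted p = 0.994 for each). Treatment thus accounted for 0.846% of the variance of the ratio within regions.

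Almost all of the spread of this ratio lay between sets of libraries that were not treatment groups. The sets were defined after the values were seen and without a miR-218 name, from the log2 ratio of the precursors let-7f-2 and let-7f-1, which are likewise hairpins with a shared mature form. In each sex and treatment group, the 3 amygdala libraries had let-7f ratios of 1.57 to 1.67 (set I), 1.69 to 1.77 (set II) and 0.87 to 0.96 (set III), and each ventral striatum library was put in the set of the amygdala library with the next number. The ventral striatum sets had let-7f ratios of 1.59 to 1.62 (I), 1.18 to 1.27 (II) and 0.86 to 0.94 (III), without overlap. Each set of a region therefore held 8 libraries, 1 per sex and treatment. The 8 amygdala libraries of set III were the shallowest, with 363141 to 622111 mature reads. All other libraries had 669367 or more. The part of depth in the values of set III was not tested. Per the methods the libraries were multiplexed in 6 sets of 8, but which library was in which of those is not given in the sources used here.

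The miR-218 precursor ratio followed these sets in both regions. The amygdala minus ventral striatum difference of its mean was -0.11 in set I and -0.67 in set II, with the amygdala higher in 0 of 8 pairs of each, and 0.28 in set III, with the amygdala higher in 8 of 8. In the amygdala the log2 ratio of mir-218a-2 to mir-218a-1 was -0.99 to -0.90 in set I, -0.75 to -0.52 in set II and -0.32 to 0.00 in set III. In the ventral striatum it was -0.98 to -0.69 in set I, -0.54 to -0.31 in set III and -0.07 to 0.16 in set II. Within a region the sets did not overlap, and they held 95.2% of the variance of the ratio within regions, with an SD of 0.0826 left inside a set. Of the 31 other pairs of precursors named with -1 and -2 (both with at least 10 RPM on average in each region, and without let-7f), 13 had over 80% of the variance of their ratio between the sets in both regions, and the sets did not overlap in 12 in the ventral striatum, in 1 in the amygdala and in 1 in both. The median over these pairs was 63.0% in amygdala and 81.3% in ventral striatum.

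**Figure D2:**
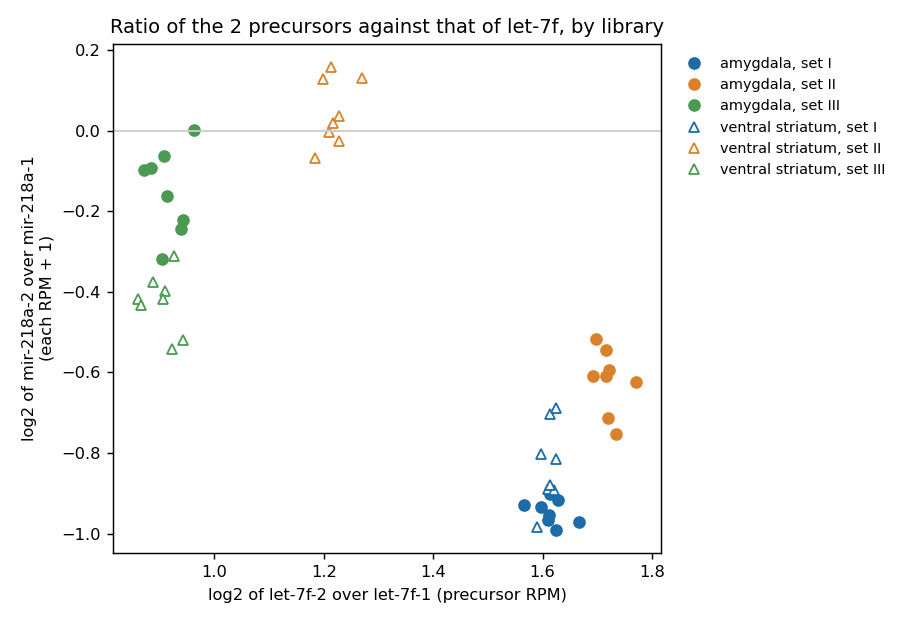
The log2 ratio of mir-218a-2 to mir-218a-1 (vertical axis) against the log2 ratio of let-7f-2 to let-7f-1 (horizontal axis) in 48 libraries, with filled circles for the amygdala, open triangles for the ventral striatum and colours for the library sets. Libraries form clusters by set, with amygdala set II between -0.75 and -0.52 and ventral striatum set II between -0.07 and 0.16 on the vertical axis.

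The mature reads were divided in a similar manner, but with an overlap of sets I and II in the amygdala. miR-218a-5p stands on 2 lines of the table, 1 beside miR-218a-2-3p and 1 between miR-218a-1-3p and miR-218b, without a locus of its own, and each line held whole reads in 48 of 48 libraries. The first line took a median of 24.2% of the miR-218a-5p reads in amygdala set I, 26.4% in set II and 34.2% in set III, with lowest values of 23.6%, 24.3% and 31.8%. In the ventral striatum it took a median of 24.7% in set I, 36.9% in set II and 32.6% in set III, with lowest values of 23.5%, 34.5% and 28.7%. As a median over a region, it had 58.2 (amygdala) and 58.4 (ventral striatum) reads per 100 reads of mir-218a-2, while the second line had 85.8 and 85.2 reads per 100 reads of mir-218a-1 and mir-218b together. The division of one mature sequence between the lines thus moved with the precursor ratio. In part it must, since the precursor values contain these mature reads.

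**Figure D3:**
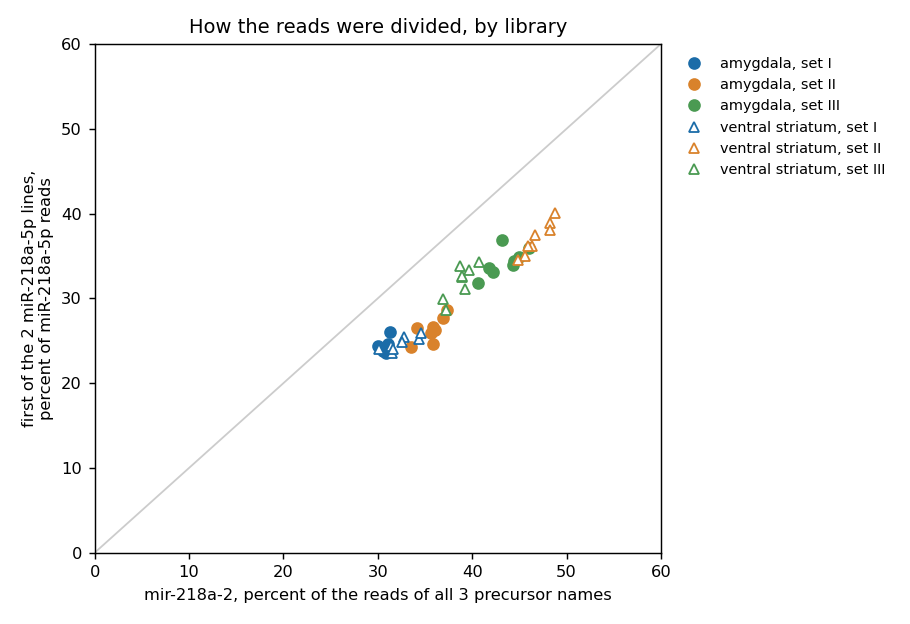
Percent of miR-218a-5p reads on the first of its 2 lines (vertical axis) against the percent of the reads of all 3 precursor names that mir-218a-2 held (horizontal axis) in 48 libraries, with filled circles for the amygdala, open triangles for the ventral striatum, colours for the sets and a grey line of equal percents. The medians of both shares are lowest in set I of each region, where the first line holds a median of 24.2% (amygdala) or 24.7% (ventral striatum).

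The sum over the loci depended little on the sets. Of the variance of log2 levels within regions, the sets held 32.6% for mir-218a-2 and 12.5% for mir-218a-1, but 4.04% for miR-218a-5p and 2.50% for the sum of the 3 precursor names. The treatment groups held 10.6%, 15.6%, 16.1% and 16.7% of it, in the same order. Any grouping of libraries takes up part of the variance without an effect, and 4 treatment groups take up more than 3 sets. The shares of sets and of treatment groups can therefore not be compared directly, and neither was tested. The 8 amygdala and the 8 ventral striatum libraries of a set were joined by their numbers alone, and whether they were handled together is not given in the sources used here. If not, each of the 6 groups of 8 holds 1 region, and region and group cannot be told apart. For miR-218a-5p the log2 difference between regions was 0.66 in set I, 0.46 in set II and 0.37 in set III, with the amygdala library higher in 8, 6 and 6 of 8 pairs of consecutive numbers. For mir-218a-1 it was 0.65, 0.70 and 0.33 in sets I, II and III. For mir-218a-2 it was 0.54 in set I, 0.029 in set II and 0.61 in set III, and the amygdala library was higher in 4 of 8 pairs of set II. The 6 groups of 8 were also taken as a random block, an analysis added after the data were seen. There limma gave adjusted p = 0.00552 for miR-218a-5p, 0.00204 for mir-218a-1 and 0.0665 for mir-218a-2. The call for mir-218a-2 was thus lost, as were those of miR-218a-5p and mir-218a-1 in control non-enriched rats (limma adjusted p = 0.0682 and 0.0510). This fit used 1 correlation for all names (0.0762) and kept libraries as the units, while region varies only between the 6 groups. Its p-values therefore do not measure the spread between these groups. Leaving out set I gave adjusted p = 0.113 for mir-218a-2 and leaving out set III gave 0.227, whereas miR-218a-5p and mir-218a-1 passed without any one set. Taking each set as 1 value, the 3 amygdala means of miR-218a-5p were all above the 3 ventral striatum means, with the smallest p that 3 against 3 allows (exact permutation p = 0.1).

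**Figure D4:**
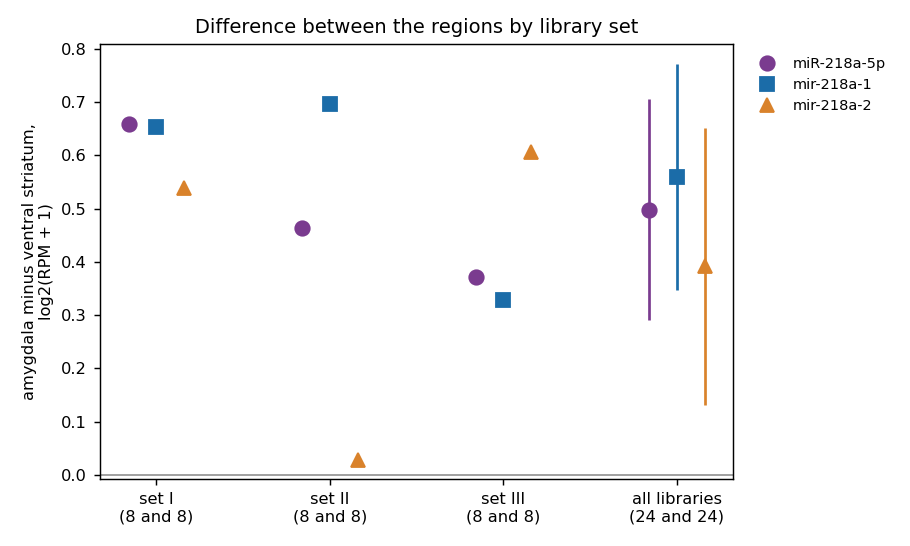
Difference between amygdala and ventral striatum in log2(RPM + 1) (vertical axis) for miR-218a-5p, mir-218a-1 and mir-218a-2 in each library set (8 libraries per region) and over all libraries (24 per region, bars for the 95% interval of the limma fit). miR-218a-5p and mir-218a-1 lie at 0.33 or above in each set, and mir-218a-2 is at 0.029 in set II.

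Among the 33 precursor pairs named with -1 and -2, mir-218a included, the regional log2 difference of the second member minus that of the first ran from -0.22 to 0.24 with a median of 0.12. The pair mir-218a-1 and mir-218a-2, at -0.17, was the fifth lowest, between let-7c (-0.17) and mir-29c (-0.16). The value of this pair depended on the sets, since its regional difference of the ratio was 0.081 without set II and -0.39 without set III. Whether its place among the pairs changed was not tested.

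The treatment comparisons asked whether prenatal ethanol or social enrichment was accompanied by another level of miR-218. Ethanol-exposed rats were set against controls among non-enriched rats, N(EvC), and among enriched rats, S(EvC). Enriched rats were set against non-enriched rats among controls, C(SvN), and among ethanol-exposed rats, E(SvN). These contrasts share groups and are not independent of each other. No name of the table passed the adjusted threshold of limma in any of the 8 contrasts, nor with ordinary least squares. Before adjustment, 17 to 41 names per contrast were at p under 0.05. This was 1.82% to 4.51% of the names tested, below the share that a threshold of 0.05 lets through without any effect. The p-values measure the spread between pools. miR-218 names were among the names under 0.05 in 2 contrasts, S(EvC) and C(SvN) of the amygdala.

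In the amygdala the control enriched group had the lowest levels. miR-218a-5p had 1300 to 2215 RPM (median 1759) there, against 1857 to 2826 RPM (median 2195) in control non-enriched, 1545 to 2328 RPM (median 2128) in ethanol-exposed non-enriched and 1899 to 3066 RPM (median 2359) in ethanol-exposed enriched libraries. All 6 ethanol-exposed enriched libraries were above the control enriched median, and the ranges overlapped. mir-218a-1 had 743 to 1346 RPM (median 1124) in control enriched and 1113 to 1998 RPM (median 1386) in ethanol-exposed enriched libraries. mir-218a-2 had 538 to 1067 RPM (median 653) and 755 to 1208 RPM (median 1015), respectively.

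For S(EvC), all 4 names were higher after ethanol at p under 0.05 before adjustment, as were 2.09% of all names tested. The log2 difference of miR-218a-5p was 0.45 (standard error 0.16, 95% interval 0.13 to 0.78, limma p = 0.00919, adjusted p = 0.878), from 1735 ± 378 to 2358 ± 410 RPM (SD, exact permutation p = 0.0216, n = 6 each), and it ranked 9th of 910 names by p. The log2 difference of mir-218a-1 was 0.45 (limma p = 0.0152, adjusted p = 0.878, exact permutation p = 0.0216) and that of mir-218a-2 was 0.44 (limma p = 0.0438, adjusted p = 1, exact permutation p = 0.0671). With single libraries left out, the highest limma p before adjustment was 0.033 for miR-218a-5p, 0.0545 for mir-218a-1, 0.0568 for mir-218b and 0.116 for mir-218a-2, for which ordinary least squares gave 0.0505. Without library set I, chosen after seeing the data, the log2 difference of miR-218a-5p was 0.38 and its limma p before adjustment was 0.109; the corresponding p was 0.15 in C(SvN) and 0.172 in the interaction.

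For C(SvN), miR-218a-5p, mir-218a-1 and mir-218b were lower after enrichment at p under 0.05 before adjustment, as were 1.65% of all names. miR-218a-5p went from 2247 ± 394 to 1735 ± 378 RPM (SD, exact permutation p = 0.0476, n = 6 each), a log2 difference of -0.38 (standard error 0.16, limma p = 0.0237, adjusted p = 1). mir-218a-1 had a log2 difference of -0.40 (limma p = 0.0295, adjusted p = 1, exact permutation p = 0.0455), and mir-218a-2 one of -0.35 (limma p = 0.106, adjusted p = 1, exact permutation p = 0.173). With single libraries left out, the limma p of miR-218a-5p before adjustment was between 0.00822 and 0.0798. The summed level of the neuronal markers was 43100 to 54500 RPM in control non-enriched and 35300 to 45300 RPM in control enriched amygdala, and its part in these values was not tested.

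The ethanol effect in enriched minus that in non-enriched amygdala, the interaction of both treatments, was 0.62 on the log2 scale for miR-218a-5p (standard error 0.22, 95% interval 0.15 to 1.08, limma adjusted p = 0.957), and its p before adjustment was the 5th smallest of 910 names. It was 0.59 for mir-218a-1 (limma adjusted p = 0.957) and 0.59 for mir-218a-2 (95% interval -0.02 to 1.20, limma adjusted p = 1), and 2.53% of all names had a positive interaction at p under 0.05 before adjustment. In ethanol-exposed non-enriched against control non-enriched amygdala the log2 difference of miR-218a-5p was -0.16 (95% interval -0.49 to 0.17), and in E(SvN) it was 0.23 (-0.10 to 0.56). The former was -0.053 after median-ratio rescaling, and -0.25 to -0.077 with single libraries left out. None of the cell type markers was at p under 0.05 before adjustment in S(EvC) or C(SvN) of the amygdala. In the interaction, 1 of 6 neuronal markers, miR-9a-3p, was under it (log2 difference of 0.32, limma adjusted p = 0.957); its part in the values of miR-218 was not tested.

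In the ventral striatum the 4 groups lay close together. miR-218a-5p had group medians of 1362 RPM (1057 to 1910) in control non-enriched, 1499 RPM (1167 to 2123) in control enriched, 1707 RPM (1035 to 2203) in ethanol-exposed non-enriched and 1399 RPM (896 to 2159) in ethanol-exposed enriched libraries. Its largest log2 difference was -0.23 in E(SvN), with a 95% interval of -0.73 to 0.27 (limma adjusted p = 1, exact permutation p = 0.435). The intervals were wider than in the amygdala, with standard errors of 0.24 against 0.16 for miR-218a-5p. In S(EvC) the log2 difference was -0.17 for miR-218a-5p (95% interval -0.67 to 0.34), -0.18 for mir-218a-1 and -0.10 for mir-218a-2. The difference between the regions in S(EvC), tested in the fit to all 48 libraries, was 0.62 for miR-218a-5p (95% interval 0.04 to 1.21, limma adjusted p = 1) and 0.63 for mir-218a-1 (0.03 to 1.23, limma adjusted p = 1), where 1.27% of all names had a positive difference at p under 0.05 before adjustment. For mir-218a-2 it was 0.54 (95% interval -0.19 to 1.27, limma adjusted p = 1).

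**Figure D5:**
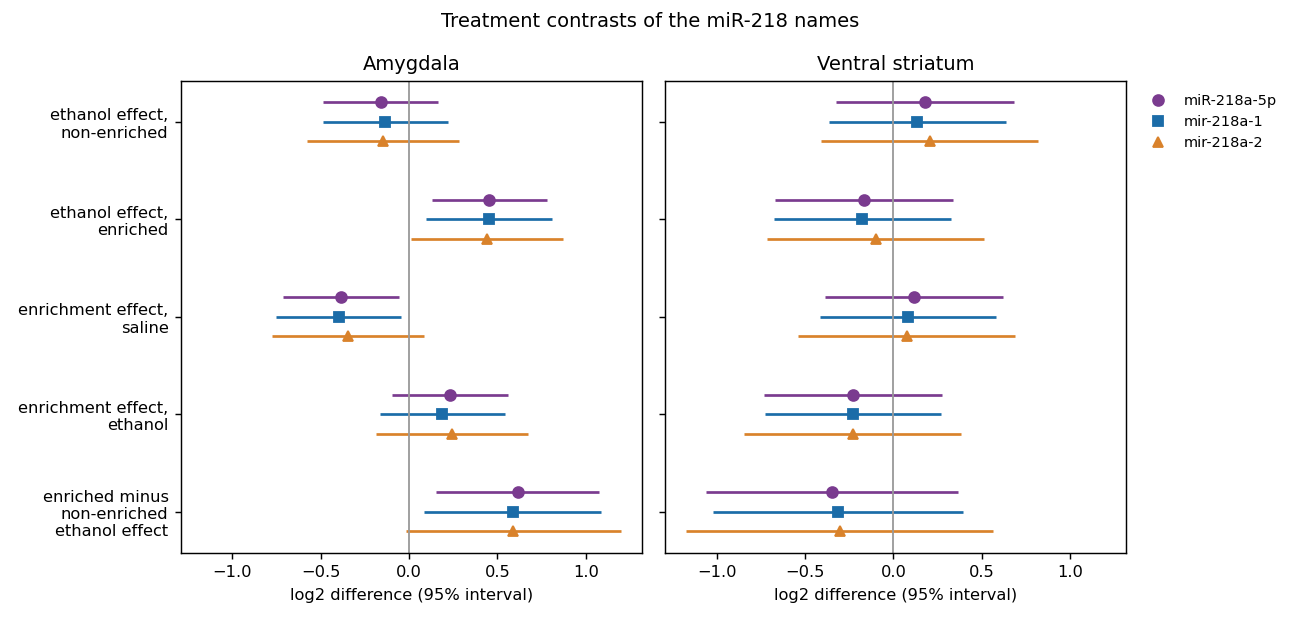
Log2 differences (horizontal axis, points) with 95% intervals (lines) from the limma fits for the 4 treatment contrasts and their interaction, by region, for miR-218a-5p, mir-218a-1 and mir-218a-2. In the amygdala the 3 names lie together at 0.44 to 0.45 for the ethanol effect in enriched rats and at -0.40 to -0.35 for the enrichment effect in control rats.

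No difference between the sexes passed the test. Male minus female libraries over both regions gave log2 differences of 0.040 for miR-218a-5p (95% interval -0.17 to 0.25), 0.025 for mir-218a-1 (-0.19 to 0.24) and 0.065 for mir-218a-2 (-0.19 to 0.32), each with a limma adjusted p of 1.

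Last, the names with the pattern most like the members were sought, by Pearson correlation of deviations from the 16 means of region, sex and treatment over 48 libraries, given as a description since the names share libraries and scaling. For miR-218a-5p, among 298 other mature names with at least 10 RPM on average in each region, these were miR-9a-5p (r = 0.832), a miRNA of neural progenitors and neurons, miR-708-3p (r = 0.674) and miR-221-3p (r = 0.665). None of these was higher in the amygdala: miR-9a-5p had a regional log2 difference of 0.036 (limma adjusted p = 0.741), miR-708-3p one of -0.27 (limma adjusted p = 0.0103) and miR-221-3p one of 0.089 (limma adjusted p = 0.661). For mir-218a-2, among 275 precursor names, they were mir-221 (r = 0.844), mir-128-2 (r = 0.833), of a neuronal miRNA, and let-7a-1 (r = 0.824). Of these, mir-128-2 was higher in the amygdala (log2 difference of 0.38, limma adjusted p = 0.0244). The regional differences of mir-221 (0.17, limma adjusted p = 0.304) and let-7a-1 (-0.089, limma adjusted p = 0.329) did not pass. The library sets held 21.8% (mir-221), 22.3% (mir-128-2) and 55.7% (let-7a-1) of the variance of log2 levels within regions. By the same measure, mir-218a-1 and mir-218a-2 had r = 0.467 with each other, and r = 0.937 and 0.733 with miR-218a-5p.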

How the data were processed

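Small RNA libraries (TruSeq) from 48 pools were sequenced by the authors, who trimmed bases with a phred score under 20, aligned reads to Rn5 with Bowtie, quantified them against miRBase 21 in Partek software and deposited a signal per name, described as RPM. Tools are as in the submitters' processing notes; versions and the treatment of reads matching several names are not given in the sources used here. All 48 value columns were used. The members, lists and library sets were chosen with earlier results of these data known.

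Lines sharing a name were added up. Two-sided limma tests used log2(RPM + 1) of names that were above 0 in at least 6 libraries of the region, with limma 3.58.1 (lmFit, contrasts.fit, eBayes with trend) in R 4.3.3, with 8 cells of sex and treatment in a region (910 and 933 names) or 16 cells over both (942 names), and Benjamini-Hochberg adjustment over all names; fold changes of low names are understated on this scale. The methods' model of sex, prenatal and postnatal treatment within a region has these cells. Means of RPM and of the ratio were compared by two-sided permutation tests (exact with 6 per group) in Python 3.11.15 with scipy 1.17.1. The fits were run on simulated data for N(EvC), with names drawn independently, no library sets and changes larger than those of miR-218. That run cannot show how the fits perform for changes of this size. One read was the step shared by most low values of a library. Of the values up to about 20 reads, 92.1% to 99.5% of mature and 85.0% to 90.7% of precursor values came out whole within 0.05 read, so no count test was run. Floors cover counting error only, since reads are PCR products. The intervals of the log2 differences come from the limma fits and rest on the spread between pools. Per the methods, the pools of a region come from separate rats, and both regions were dissected from the same rats. The labels do not tie pools to rats or pair the regions. Injections were given to dams, and how many dams or litters the pools came from is not given in the sources used here. Pools that share a dam or a cage would not be independent, which the tests do not take into account.

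Named were the members, other names with 218, the 3 names most like miR-218a-5p and mir-218a-2, the neighbours of the mir-218a pair, and cell type markers. The alternatives tried were another pseudocount (0.1 or 10), all names without a filter, or names averaging 10 RPM or more, rescaling by median ratios, ordinary least squares, unlogged RPM, mature or precursor names only, only the groups compared, the replicate number or consecutive library numbers as blocks, lines kept apart, and each library left out; the analyses by library set were added after the data were seen.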

Additional observations from a re-analysis of the deposited data

Results flagged for a closer look

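In the amygdala, the ethanol effect differed between enriched and non-enriched rats at p under 0.05 before adjustment for 3 names of the family, with log2 differences of 0.62 (miR-218a-5p), 0.59 (mir-218a-1) and 0.58 (mir-218b), and none at an adjusted p under 0.05 in limma. The ethanol effect in enriched rats differed between the regions at the same unadjusted threshold for these names, by 0.62, 0.63 and 0.63 on the log2 scale, again with none after adjustment. These names share reads, and both differences rest on the same control enriched and ethanol-exposed enriched amygdala libraries. No library stood apart from its treatment group of 6 by Dixon's criterion in any of the 4 names or in the log2 ratio of mir-218a-2 to mir-218a-1.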

How the results depend on the processing

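The regional differences of all 4 names over all groups kept their direction and their call under every alternative chosen beforehand, as did the absence of a call in the treatment contrasts. Within groups, the first line of miR-218a-5p taken alone lost the regional call in ethanol-exposed enriched (0.67, adjusted p = 0.117) and control non-enriched rats (0.55, adjusted p = 0.271). Of the alternatives chosen after the data were seen, 3 ended the call for mir-218a-2: the library set of a region as a random block (0.39, adjusted p = 0.0665) and leaving out set I (0.32) or set III (0.28). The regional difference of the log2 ratio of mir-218a-2 to mir-218a-1 was -0.20 without set I (permutation p = 0.0404), -0.39 without set III (p = 0.0041) and reversed to 0.081 without set II (p = 0.501). The number of names called for the region fell from 278 to 170 with the random block and to 160 without set III. Names at p under 0.05 before adjustment were, in the order S(EvC), C(SvN) and interaction of the amygdala, 22, 12 and 19 with a mean of at least 10 RPM, 20, 14 and 21 for mature names only and 15, 9 and 13 for precursor names only, against 35, 24 and 35; the last 2 settings tested fewer names. C(SvN) had 37 in a fit to its own groups, S(EvC) had 19 without set III, and the interaction had 23 without set I and 53 without set II. In the ethanol-exposed non-enriched group, median-ratio rescaling moved the median regional difference of all names from -0.14 to -0.02.

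With single libraries left out, small ventral striatum differences changed sign: N(EvC) of mir-218a-1 and of mir-218b (-0.012 to 0.25 and -0.011 to 0.25), S(EvC) of mir-218a-2 (-0.24 to 0.068), and C(SvN) of miR-218a-5p (-0.000665 to 0.24), mir-218a-1 (-0.063 to 0.23), mir-218b (-0.063 to 0.23) and mir-218a-2 (-0.093 to 0.20). So did the regional difference of mir-218a-2 in control enriched (-0.027 to 0.30) and ethanol-exposed non-enriched rats (-0.011 to 0.36) and the sex difference of mir-218a-1 and of mir-218b (-0.0099 to 0.062 and -0.0096 to 0.062). The log2 ratio ran from -0.090 to 0.092 [A N(EvC)], -0.12 to 0.080 [A S(EvC)], -0.038 to 0.16 [A C(SvN)], -0.055 to 0.14 [A E(SvN)], -0.030 to 0.17 [V N(EvC)], -0.031 to 0.20 [V S(EvC)], -0.13 to 0.10 [V C(SvN)] and -0.11 to 0.10 [V E(SvN)], with A for amygdala and V for ventral striatum. Counts at p under 0.05 ran from 13 (without control non-enriched female replicate 1) to 29 for C(SvN) and from 28 to 57 (without ethanol-exposed non-enriched female replicate 3) for the interaction. The regional difference of miR-218a-5p in control non-enriched rats ran from 0.56 to 0.77 and its adjusted p from 0.0311 to 0.152. Its call was lost, with an adjusted p above 0.05, without any control non-enriched amygdala library other than female replicate 2. The same held for any control non-enriched ventral striatum library other than male replicate 1, and for 4 libraries of other groups. In ethanol-exposed enriched rats the call was lost without 1 library, female ventral striatum replicate 2 (0.67, adjusted p = 0.0635). The cause of these changes was not tested.

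The labels' replicate numbers gave no pairing. Same-numbered libraries, taken as deviations from their group means, correlated with a median of -0.0603 in amygdala (9 of 24 pairs above 0.1) and 0.0898 in ventral striatum (11 of 24), and 6 and 10 of 24 libraries correlated best with their own number. With the replicate number as a block, 289 names were called for the region and 42, 30 and 45 were at p under 0.05 before adjustment in S(EvC), C(SvN) and the interaction. There miR-218a-5p had a limma adjusted p of 0.415 in S(EvC); no call of a member changed.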
